A study of Mus musculus with 9 samples.

Results

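The cytosolic ribosomal proteins are the protein subunits of the ribosomes that translate messages from nuclear genes. Members were found by name alone: every probe, control spots left out, whose gene name on the Fzd8-CRD arrays is Rpl or Rps plus a number and at most 1 letter, or Rplp0, Rplp1, Rplp2 or Rpsa. This gave 130 probes of 78 genes, 46 genes of the large and 32 of the small subunit, among 41174 probes of 27845 gene names on the array. The rule takes in the paralogs Rpl3l and Rps27l, and it leaves out subunits that carry other names, such as Fau and Rack1.

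RNA came from tumour cells that had been FACS sorted as GFP- and was hybridised to 9 dual-colour Agilent mouse arrays. Each array's source is given as MMTV Wnt-1 and MMTV-Her2 tumours together, so the models cannot be told apart. In such mice the promoter of mouse mammary tumour virus, active mainly in the mammary epithelium, expresses the growth signal Wnt-1 or the growth factor receptor Her2. By the treatment label, 5 arrays belong to cells exposed to Fzd8-CRD, a Wnt inhibitor made of the extracellular part of Frizzled 8 that binds Wnt proteins, and 4 arrays to controls. The design text calls the arrays of each group biological replicates, another field names the inhibitor for the controls too, and the control treatment, the dose, the age and the number of mice per sample are not stated in the labels.

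Tumour cell RNA carried Cy5 and a reference RNA Cy3, and the value of a probe is the log2 ratio of Cy5 to Cy3. The reference is named differently in different fields (a universal mouse RNA, a pool of strains, a universal human RNA), so a difference between groups would also hold any difference between references. A difference is always the mean of the 5 Fzd8-CRD arrays minus the mean of the 4 control arrays in log2 ratio, and its standard error (SE) is that of limma's fit. A probe was called, or said to have risen or fallen, where its Benjamini-Hochberg adjusted p over all probes tested lay under 0.05. In bulk samples, fewer cells of a type and less RNA per cell cannot be told apart.

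Slide and group cannot be told apart either: the 4 controls shared 1 slide and scan day, and the treated arrays were on 4 further slides scanned 367 or 378 days later. In Cy5, 52.4% to 60.0% of probes were well above background on the treated arrays and 63.8% to 70.8% on the controls. Fzd8-CRD replicates 1 and 2 correlated at 0.973 over all tested probes and control replicates 3 and 4 at 0.976, while control replicate 2 stood apart, at 0.602 to 0.728 with every other array. The epithelial markers Cdh1, Krt5 and Krt14 were far above the reference in both groups, with mean log2 ratios for Cdh1 of 6.49 (Fzd8-CRD) and 7.08 (control). Of 7 epithelial probes 1, of Krt5, rose and 0 fell, with a median difference of -0.36. At an unadjusted limma p under 0.05, 2 were lower and 2 higher. All 7 erythrocyte probes tested fell, with array medians of -2.42 to -0.59 (treated) and 1.14 to 4.85 (control) around each probe's mean, and 6 of 7 endothelial probes fell, with -0.94 to -0.0079 and 0.43 to 1.08. With limma, 0 of 7 lymphocyte and 0 of 6 macrophage probes were called (1 and 3 lower at an unadjusted p under 0.05), and of 8 fibroblast probes 1 fell and 1 rose. Control replicate 2 had the highest median of these 3 lists, 1.94, 1.13 and 1.78. Over all probes tested, 7.84% fell and 6.79% rose. The part of other cells, and of control replicate 2, in the markers' differences was not tested.

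A cytosolic ribosome joins a large subunit, which forms peptide bonds, with a small subunit, which reads the message. Each subunit is a scaffold of ribosomal RNA with a large set of small, mostly basic proteins, whose genes lie scattered over the genome and are strongly expressed in growing cells. Their messages begin with a terminal oligopyrimidine tract (TOP), through which the mTOR pathway and the RNA-binding protein Larp1 govern their translation, and the genome holds many processed pseudogenes and near-identical copies of them. Probes of this family may therefore bind messages of more than 1 copy, and single values below are uncertain to that extent.

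Ribosomal protein probes were on balance lower in Fzd8-CRD cells, by a small amount and with marked exceptions. Of the 127 probes well above background on enough arrays to be tested, which covered all 78 genes, 24 probes of 19 genes fell, against 7.84% of all 26823 probes tested, and 7 probes of 7 genes rose, against 6.79%. The falling share of members was 18.9% and the rising share 5.51%. The median difference of the members was -0.27, against -0.06 for all probes, and 102 of 127 differences were negative. The groups of arrays did not overlap for 33 lower and 6 higher members (26.0% and 4.72%), against 11.1% and 8.16% of all probes. Probes not tested were 1 each of Rpl35a, Rps19 and Rps2, genes that had other probes. The falls of erythrocyte and endothelial markers ran alongside, and their part in the members' differences was not tested.

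The count of falling members depended on how the ratios were made. With the scanner software's own log ratio 7 members fell (5.51%, against 6.24% of all probes), and with the deposited ratios 7 of 128 (5.47% against 5.60%), so that under both the members' share lay near the background. The median difference was then -0.16 and -0.15. With each array only centred on its median, 1 member fell (0.787% against 1.69%) and 1 rose, at a median of -0.43. With the closest pair of arrays in each group averaged, which was tried only once the data had been seen, 6 members fell (4.72% against 1.15%) and 1 rose. Single arrays mattered too: 14 members fell without Fzd8-CRD replicate 1 (11.0%, against 4.58% of all probes), 14 without Fzd8-CRD replicate 4 (11.0% against 5.12%), 15 without control replicate 3 (11.8% against 3.79%) and 15 without control replicate 4 (11.8% against 4.73%). The rises numbered 11 without control replicate 1, 2 without control replicate 3 and 4 without control replicate 4. Without control replicate 2, the array that stood apart, 25 members fell (19.7% against 9.78%) and 5 rose. Counts of rises under these settings are given without the share over all probes. With the slide as a random block 45 fell (35.4% against 16.4%) and 12 rose, at a consensus correlation of -0.16. No slide held arrays of both groups, so this setting could not separate slide from group.

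**Figure D1:**
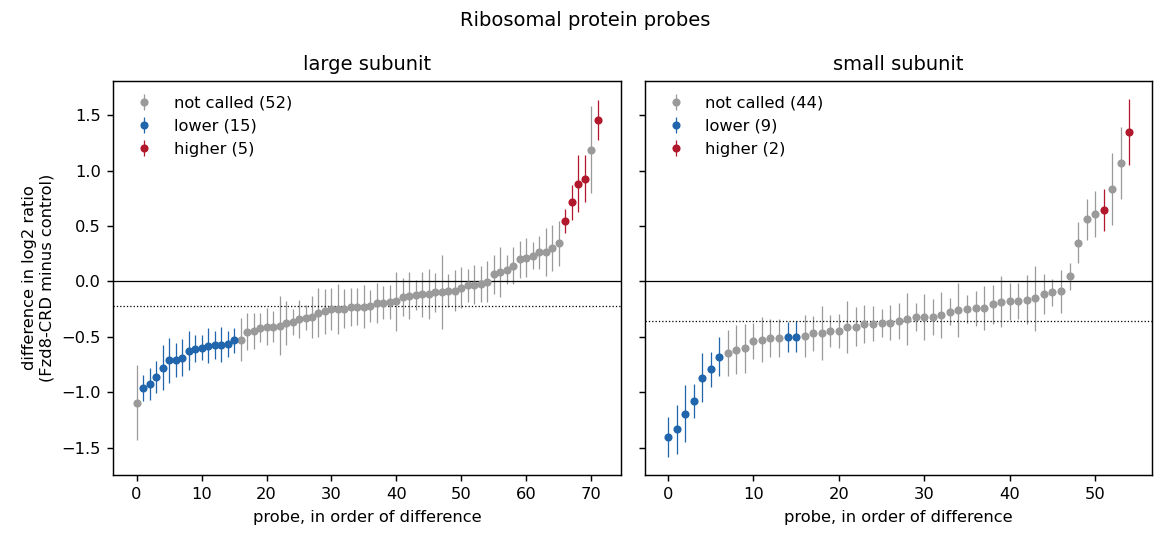
Difference in log2 ratio, Fzd8-CRD minus control, of each tested probe of the large subunit (left) and the small subunit (right), in order of difference. Bars are standard errors of limma's fit, the dotted line is the median of the panel (-0.23 and -0.36), blue probes fell and red probes rose. Most points lie below 0 (55 of 72 and 47 of 55), with a short tail of higher probes at the right of each panel.

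Both subunits leaned the same way. In the large subunit 15 of 72 probes fell (20.8%) and 5 rose, with a median difference of -0.23. In the small subunit 9 of 55 fell (16.4%) and 2 rose, with a median of -0.36. The quartiles of the differences ran from -0.45 to -0.02 in the large and from -0.50 to -0.18 in the small subunit. With each dye fitted alone, the large subunit had medians of -0.15 in Cy5 and 0.02 in Cy3. The small subunit had -0.22 in Cy5 and 0.18 in Cy3, so the subunits also differed in the reference dye. No test was made of the difference between subunits.

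Array by array, the members shifted by a modest amount. The median deviation of the 127 probes from their own means over the 9 arrays was 0.01, -0.11, -0.11, -0.09 and -0.28 on Fzd8-CRD replicates 1 to 5, and 0.37, 0.11, 0.04 and 0.04 on control replicates 1 to 4. The groups did not overlap, but Fzd8-CRD replicate 1 came close to control replicates 3 and 4. Control replicate 1 was the highest array, with 110 members above their own mean, and Fzd8-CRD replicate 5 the lowest, with 15. Without control replicate 1 the median difference was -0.17 and the counts were 20 lower (15.7%, against 7.65% of all probes) and 11 higher. The count of rises is again given without the share over all probes.

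The furthest fall was that of Rpsa, a small subunit protein also known as the laminin receptor. Probe A_51_P439092 had log2 ratios of -1.07, -1.55, -1.17, -1.24 and -0.63 on the Fzd8-CRD arrays and 0.47, 0.08, 0.24 and 0.30 on the controls. All 5 treated arrays lay below 0 and all 4 controls above it, and the probe fell by 1.41 (SE 0.18, limma adjusted p = 0.00329). The other Rpsa probe, A_52_P372165, had 1.32, 1.33, 1.41, 0.72 and 0.86 against 2.09, 0.94, 1.58 and 1.55, with overlapping groups and a difference of -0.41 (SE 0.24, adjusted p = 0.262) that turned to 0.16 with scaling between arrays. On mm8, the build that the Fzd8-CRD arrays' files name, the first lies upstream at chr9:119977169-119977228 and the second downstream at chr9:119980547-119980606 (plus strand). Log2 Cy5 signals were 13.2 to 14.9 at the upstream and 8.1 to 9.4 at the downstream probe, and the part of signal level in the contrast was not tested. The first 30 bases of both probes are shown because the upstream probe was called and the downstream probe was not.
Rpsa A_51_P439092: ttaaagggaaacttacacaatgtccggagc
Rpsa A_52_P372165: acctggccagattgggattttgtgtcccag

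Rps3, a small subunit protein at the entry of the message channel that also acts in DNA repair, showed the same contrast within a gene. Probe A_52_P768 had log2 ratios of -0.41, -0.63, 0.05, -0.11 and -0.27 on the Fzd8-CRD arrays and 1.44, 1.47, 0.62 and 0.72 on the controls, a fall of 1.33 (SE 0.22, adjusted p = 0.00764). Probe A_51_P318642, which lies downstream, had 0.63, 0.57, 0.63, 0.70 and 0.66 against 1.18, 0.98, 0.73 and 0.75, a difference of -0.27 (SE 0.12, adjusted p = 0.148) that turned to 0.09 with scaling between arrays. The treated arrays lay below all controls at both probes, but control replicates 3 and 4 were close to the treated arrays at the second.

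Other small subunit proteins that fell included Rps9, which helps keep decoding accurate. Its probe A_51_P436928 (mm8 chr7:3307742-3307801, plus strand) had -0.39, -0.53, -0.38, -0.32 and -0.65 on the Fzd8-CRD arrays and 0.70, 1.01, 0.27 and 0.51 on the controls. The groups lay on opposite sides of 0, and the fall of 1.08 (SE 0.16, adjusted p = 0.00523) stayed past the threshold in all 21 alternatives, as did, among 19 named probes called, 1 other, of Rpl35a. The falls of Rpsa, Rps3 and Rpl19 A_52_P547021 were lost in 1, median centring, at adjusted p of 0.0707, 0.0553 and 0.0766. Rps19, mutated in Diamond-Blackfan anaemia, fell by 1.19 at probe A_51_P337290 (SE 0.26, adjusted p = 0.0172), where control values ran from 0.54 to 1.16 and treated values from -1.03 to 0.31. At its other probe, A_52_P404955, the difference was -0.16 (adjusted p = 0.626). In limma's fit of Cy5 alone the order was the other way round. The first probe differed by -0.51 (adjusted p = 0.322) and the second by -0.78 (adjusted p = 0.0188), with Cy3 differences of 0.63 and -0.38.

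Rps6, the substrate of the S6 kinases, had log2 ratios of -0.68, -1.01, -0.59, -0.97 and -0.88 against -0.45, 0.19, -0.45 and 0.14 at probe A_51_P344734. It fell by 0.68 (SE 0.18, adjusted p = 0.0326). The groups did not overlap, but the call was lost in 10 of 21 alternatives, among them those without Fzd8-CRD replicate 1, 2, 4 or 5 or without control replicate 2 or 4 (adjusted p 0.0511 to 0.0839). The second Rps6 probe differed by -0.25 (adjusted p = 0.205). Rps2, at the entry of the message channel, fell by 0.79 at probe A_52_P277592 (SE 0.16, adjusted p = 0.0132). Its other tested probe, A_51_P362278, differed by -0.38 (adjusted p = 0.0739), with overlapping groups and a Cy5 difference of 0.11. A smaller fall was that of Rps3a, now named Rps3a1, at probe A_52_P49886 (-0.50, adjusted p = 0.0442), while its probe A_51_P292357 differed by -0.11 (adjusted p = 0.692).

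In the large subunit, Rpl19, a protein of the bridge between subunits, fell at both of its probes. Probe A_52_P547021 had log2 ratios of -0.60, -0.91, -0.62, -0.68 and -0.65 on the Fzd8-CRD arrays and 0.43, 0.39, 0.10 and 0.18 on the controls, a fall of 0.97 (SE 0.12, adjusted p = 0.00304). Probe A_51_P415162 fell by 0.61 (SE 0.12, adjusted p = 0.0130). Rpl19 and Rpl29 were the 2 genes with several probes of which all fell.

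Rpl29, a basic protein of the large subunit that also binds heparin, had 4 probes, with differences of -0.93, -0.86, -0.71 and -0.58. The groups did not overlap at any of them. At probe A_52_P217069 the treated arrays had -0.27, -0.74, -0.23, -0.31 and -0.12 and the controls 0.55, 0.73, 0.43 and 0.66, and at A_52_P505977 the treated arrays had -0.44, -0.95, -0.44, -0.58 and -0.34 and the controls 0.16, 0.42, 0.23 and 0.44. Fzd8-CRD replicate 2 was the lowest array at both. The probes overlap by 33 bases (mm8, plus strand, chr9:106289206-106289265 and chr9:106289179-106289238) with 3 mismatches, in capitals below, and are shown because overlapping probes gave nearly the same difference. At the Rpl29 probe A_51_P400137 the call was lost without control replicate 3 (adjusted p = 0.0504) or 4 (0.0520).
Rpl29 A_52_P217069: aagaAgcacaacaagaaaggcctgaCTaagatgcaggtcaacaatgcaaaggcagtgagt
Rpl29 A_52_P505977: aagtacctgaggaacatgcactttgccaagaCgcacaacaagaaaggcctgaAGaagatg

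The acidic stalk, which recruits elongation factors, is built of Rplp0 with pairs of Rplp1 and Rplp2. Rplp0 had log2 ratios of -0.62, -1.05, -0.43, -0.38 and -0.45 against 0.40, 0.52, -0.22 and -0.18, with control replicates 1 and 2 the highest. It fell by 0.71 (SE 0.21, adjusted p = 0.0462), a call lost in 16 of 21 alternatives, including the removal of any single array (adjusted p 0.0526 to 0.0959). Rplp1 differed by -0.28 (SE 0.22, adjusted p = 0.399) and Rplp2 by -0.06 (SE 0.19, adjusted p = 0.853), with overlapping groups at both.

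The remaining large subunit genes that fell were Rpl31 (-0.78, on the 8 arrays with a value), Rpl3 (-0.69), which shapes the peptidyl transferase centre, Rpl32 (-0.63), Rpl7a (-0.60 and -0.57 at 2 of 3 probes), Rpl14 (-0.57), Rpl5 (-0.57), which carries the 5S RNA and can bind Mdm2, and Rpl18 (-0.53). Their adjusted p lay between 0.0120 for Rpl7a and 0.0428 for Rpl32, the one of these at which the groups overlapped. The call of Rpl31 was lost without Fzd8-CRD replicate 1, 2 or 4 or control replicate 1, 3 or 4 (adjusted p 0.0633 to 0.0848). At the other Rpl31 probe, A_51_P452820, the difference was -0.42 (adjusted p = 0.0606), without overlap of the groups. The largest negative difference in the large subunit, -1.09 at the Rpl4 probe A_52_P376829, was not called (adjusted p = 0.0579): its treated arrays ran from -2.10 to -0.83 and the controls had -1.34, -0.30, -0.24 and 0.04.

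The paralogs did not pass the test. Rpl3l, a muscle-enriched counterpart of Rpl3, differed by -0.41 (SE 0.14, adjusted p = 0.0765), but by 1.20 under the scanner's and the deposited ratios (adjusted p = 0.0624 and 0.0635), so that its direction is not settled. Rps27l, a p53-responsive counterpart of Rps27, differed by -0.53 (SE 0.20, adjusted p = 0.107). The smallest difference in the large subunit was -0.0017 (SE 0.18), at Rpl15, and in the small subunit 0.05 (SE 0.12), at Rps29, and the sign of both changed between alternatives. At Rpl15 the treated arrays ran from -0.51 to -0.04, within the range of the controls, -0.60 to 0.10. The Rpl15 probe, A_52_P12346, is placed on chr12 of mm8, while the gene's promoter window lies on chr14. Which copy it reads was not tested.

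**Figure D2:**
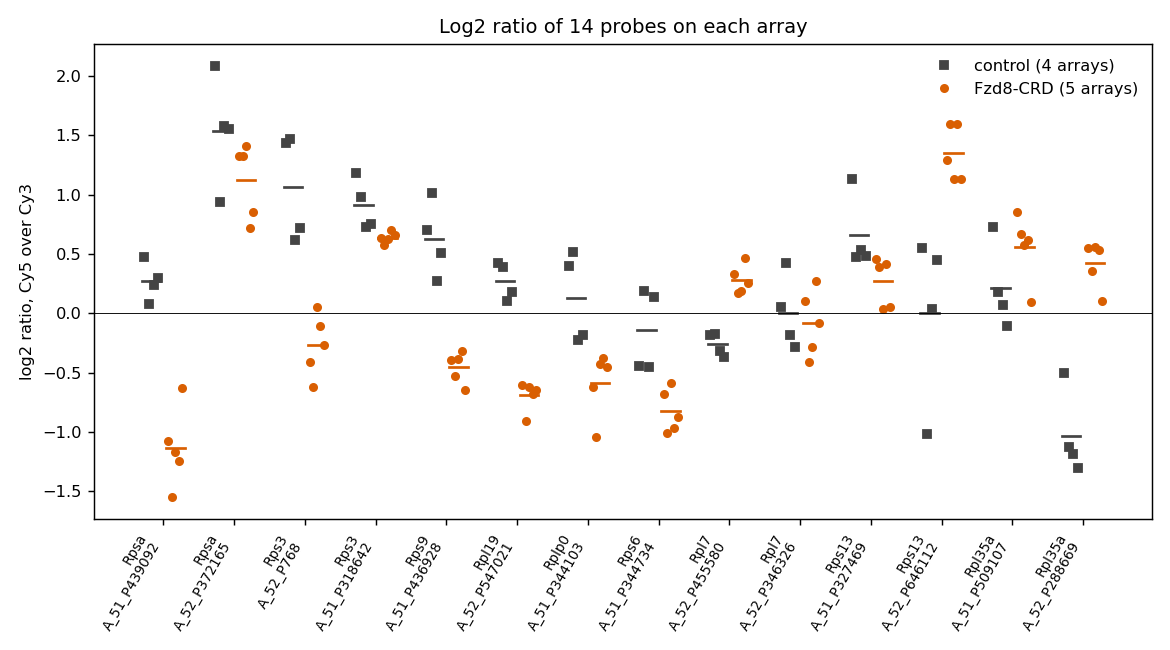
Log2 ratio of Cy5 to Cy3 of 14 probes on each array, control arrays as squares and Fzd8-CRD arrays as circles, with group means as lines. The groups do not overlap at A_51_P439092 of Rpsa, both Rps3 probes, Rps9, Rpl19, Rplp0, Rps6, A_52_P455580 of Rpl7, both Rps13 probes and A_52_P288669 of Rpl35a, and they overlap at the other Rpsa, Rpl7 and Rpl35a probes drawn.

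The rises were led by Rpl35a, a large subunit protein also mutated in Diamond-Blackfan anaemia. Probe A_52_P288669 had log2 ratios of 0.55, 0.36, 0.56, 0.53 and 0.10 on the Fzd8-CRD arrays and -0.51, -1.13, -1.18 and -1.31 on the controls. Every treated array was above 0 and every control below it, a rise of 1.45 (SE 0.18, adjusted p = 0.00321). Its neighbour A_51_P509107 had 0.85, 0.67, 0.57, 0.62 and 0.09 against 0.73, 0.18, 0.07 and -0.11, a difference of 0.34 (SE 0.20, adjusted p = 0.266) with overlapping groups. The probes share 45 bases (mm8, plus strand, chr16:32977256-32978456 and chr16:32977241-32978436), with 4 mismatches in capitals, and are shown because the treated arrays gave like values at both while the controls did not.
Rpl35a A_52_P288669: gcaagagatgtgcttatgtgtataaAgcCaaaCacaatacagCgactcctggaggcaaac
Rpl35a A_51_P509107: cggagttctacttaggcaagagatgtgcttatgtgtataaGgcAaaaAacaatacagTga

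Rps13, a small subunit protein near the bridge to the large subunit, gave probes of opposite sign. Probe A_52_P646112 had 1.30, 1.60, 1.13, 1.60 and 1.14 on the Fzd8-CRD arrays and 0.55, -1.02, 0.04 and 0.45 on the controls, a rise of 1.35 (SE 0.30, adjusted p = 0.0187; 0.0512 without control replicate 3). Probe A_51_P327469 had 0.46, 0.39, 0.03, 0.42 and 0.05 against 1.13, 0.48, 0.54 and 0.48, a difference of -0.39 (SE 0.17, adjusted p = 0.156). The groups did not overlap at either probe, in opposite order. Log2 Cy5 signals were 7.0 to 9.8 at the first probe, lowest on control replicate 2, and 16.4 to 16.9 at the second. The part of low signal in the rise was not tested. On mm8 they lie at chr7:116122744-116122807 and chr7:116122672-116122731 (minus strand), and the first 30 bases of each show that they read different stretches.
Rps13 A_52_P646112: tccagtcaccaagagagttgatgggtcctg
Rps13 A_51_P327469: gagtcatccacagcctctgctctagtggca

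Rpl7, an RNA-binding protein of the large subunit, was read by 3 probes along its message. From the upstream to the downstream end the differences were -0.40 at A_51_P496480 (SE 0.27, adjusted p = 0.320), -0.08 at A_52_P346326 (SE 0.19, adjusted p = 0.788) and 0.54 at A_52_P455580 (SE 0.11, adjusted p = 0.0128). At the last, the treated arrays had 0.33, 0.17, 0.19, 0.47 and 0.26 and the controls -0.18, -0.17, -0.32 and -0.37. The groups overlapped at the first 2 probes and not at the last. The probes lie at chr1:16088736-16088795, chr1:16088015-16088412 and chr1:16087002-16087061 (mm8, minus strand) and are shown in order along the message.
Rpl7 A_51_P496480: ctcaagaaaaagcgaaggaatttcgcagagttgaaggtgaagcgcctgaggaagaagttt
Rpl7 A_52_P346326: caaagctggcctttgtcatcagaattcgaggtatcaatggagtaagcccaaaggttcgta
Rpl7 A_52_P455580: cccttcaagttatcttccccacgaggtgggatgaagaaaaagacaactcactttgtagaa

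The other rises were those of Rpl13 at A_52_P103513 (0.93, adjusted p = 0.0206), Rpl27a at A_51_P418662 (0.88, adjusted p = 0.0488), Rpl23a at A_51_P127516 (0.71, adjusted p = 0.0176) and Rps28 at A_51_P335671 (0.64, adjusted p = 0.0492). The groups overlapped for Rpl27a and Rps28, and the call of Rpl27a was lost in 14 of 21 alternatives, among them the removal of any array but control replicate 1 (adjusted p 0.0742 to 0.122). Rpl13 was lost without control replicate 3 (0.0634) or 4 (0.0519), and Rpl23a without control replicate 3 (0.0556). Other probes of these genes were not called: 0.06 and 0.26 for Rpl13, 0.20 for Rpl27a, -0.04 for Rpl23a, and 0.35 and 0.56 for Rps28. The 3 Rps28 probes all had positive differences, with a range of 0.29. Log2 Cy5 signals were 7.5 to 9.4 at the rising Rpl13 probe and 15.6 to 16.9 at its other probes. They were 7.3 to 9.7 at the rising Rpl27a probe and 12.6 to 13.4 at its other probe. The rising Rpl23a and Rps28 probes had 16.1 to 17.8. The part of low signal in these rises was not tested.

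Probes of 1 gene often differed. Of the 38 genes with more than 1 probe tested, 8 had probes of opposite sign, and the range within a gene had a median of 0.38 and a maximum of 1.73 (Rps13). In 7 genes it was over 1, namely Rps13, Rps24, Rpl35a, Rpl11, Rps12, Rps3 and Rps19. No gene had both a falling and a rising probe. With the brightest probe of each gene only, 14 of 78 members fell (17.9%, against 7.62% of all genes) and 2 rose (2.56%, against 6.47%).

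The kind of sequence record a probe was designed to went with its difference. The 109 member probes designed to a RefSeq mRNA had a median difference of -0.32, with 22 lower and 3 higher. The 18 designed to other accessions, 10 of them RIKEN cDNA clones, had a median of -0.11, with 2 lower and 4 higher. Beside a RefSeq mRNA probe of the same gene, 15 of 17 such probes (88.2%) had a difference above every RefSeq probe of that gene. Over the other genes of the array 58.0% of 2305 such probes did, and no test of the difference was made. Among those not called were A_52_P566208 of Rpl11 (1.19, against 0.11), A_52_P100002 of Rps24 (1.07, against -0.32) and A_52_P415440 of Rps12 (0.83, against -0.24). These probes were also dim. Their log2 Cy5 signals were 7.5 to 10.7, 7.4 to 10.4 and 6.8 to 9.3, against 16.5 to 17.0, 15.5 to 16.3 and 16.4 to 17.2 at the RefSeq probes. Not all such probes were dim, as Rps28 A_51_P335671 had 16.9 to 17.8. The part of signal level in the contrast was not tested.

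**Figure D3:**
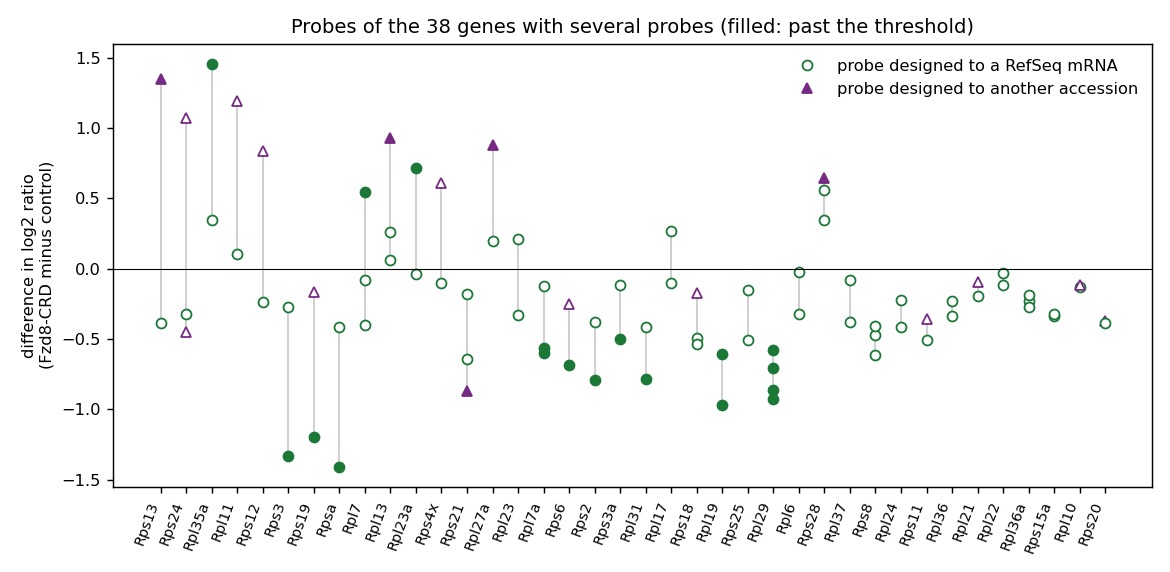
Difference in log2 ratio of each probe of the 38 genes with several tested probes, ordered by the range within the gene, joined by a grey line. Circles are probes designed to a RefSeq mRNA and triangles probes designed to another accession, filled where the probe was called. Triangles lie at the top of most of the lines that hold one.

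Differences were also compared by the place of a probe along its gene. For 24 member genes with RefSeq mRNA probes at different places, the most downstream probe was compared with the most upstream, in the order of their mm8 coordinates along the strand. The downstream probe had the higher difference in 16 of 24 genes (66.7%), with a median gap of 0.17. Probes compared in this way were not matched for signal level. The widest gaps were 1.06 in Rps3, 0.99 in Rpsa, 0.95 in Rpl7 and 0.75 in Rpl23a, and the gap was negative in 8 genes, furthest in Rpl23 (-0.54), Rps21 (-0.47), Rps3a (-0.39) and Rpl29 (-0.22). In Cy5 alone the median gap was 0.42 and in Cy3 0.07.

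Genes at large gave a similar share. Among 3880 other genes the downstream probe had the higher difference in 67.8%, with a median gap of 0.17, made of 0.19 in Cy5 and 0.01 in Cy3. Per array, the median downstream minus upstream log2 ratio of those genes was 0.18, 0.25, 0.11, 0.13 and 0.07 on the Fzd8-CRD arrays and 0.01, -0.13, 0.02 and 0.01 on the controls. Each treated array was above each control. The part of this pattern in the falls above was not tested.

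**Figure D4:**
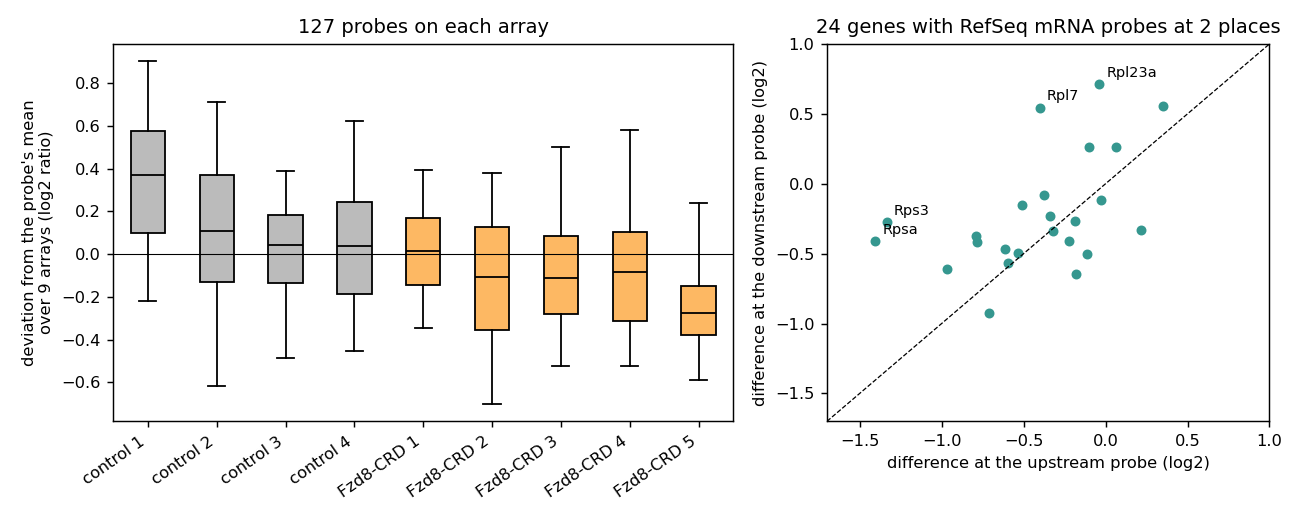
Left, the deviation of each of the 127 ribosomal protein probes from its mean over the 9 arrays, in log2 ratio, as boxes of the quartiles with whiskers to the 5th and 95th percentile. Right, the difference between groups at the most downstream against the most upstream RefSeq mRNA probe of 24 genes, with a dashed line of equal values, above which 16 genes lie.

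A ratio can move through either RNA, so the quantile-normalized signals of the dyes were fitted separately. In Cy5, the tumour cell RNA, 26 members fell, against 8.05% of all probes, and 11 rose, against 9.17%, with a median of -0.20. In Cy3, the reference RNA, 32 fell, against 31.3%, and 54 rose, against 26.5%, with a median of 0.09. Of the 24 probes whose ratio fell, 13 also fell in Cy5 alone, 13 rose in Cy3, and 3 had a positive Cy5 difference. Of the 2104 falling ratios over all probes, 1084 also fell in Cy5, 666 rose in Cy3, and 88 had a positive Cy5 difference. Of the 1820 rising ratios over all probes, 932 also rose in Cy5. Of the 7 members whose ratio rose, 6 also rose in Cy5 alone, the exception being Rps28, with -0.38 in Cy5 and -0.72 in Cy3.

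Single members differed in which dye moved. Rps3 A_52_P768, Rps9 and Rps2 A_52_P277592 fell in Cy5 by 1.19, 0.83 and 0.85, with Cy3 differences of 0.16, 0.23 and 0.05. Rpsa A_51_P439092 fell in Cy5 by 0.90 and rose in Cy3 by 0.47. The Rpl29 probe A_52_P217069 differed by 0.03 in Cy5 and rose by 0.82 in Cy3, so that its ratio fell while its tumour cell signal did not pass the test (adjusted p = 0.909).

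Rps21, a small subunit protein, had the largest difference of any member in both dyes. Probe A_52_P678800 had log2 Cy5 signals of 14.02, 13.94, 13.59, 13.69 and 12.98 on the Fzd8-CRD arrays and 12.03, 10.75, 11.12 and 11.13 on the controls. Its Cy3 signals were 13.62, 13.53, 13.55, 13.62 and 12.86 against 10.42, 10.59, 10.48 and 10.55. Signal was thus higher on every treated array in both dyes, by 2.39 and 2.93, while the ratio fell by 0.87 (SE 0.22, adjusted p = 0.0305). That call was lost without Fzd8-CRD replicate 1, 3, 4 or 5 or control replicate 3 or 4 (adjusted p 0.0531 to 0.0636).

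A second Rps21 probe, A_52_P740562, shares 42 bases with it without a mismatch (mm8, plus strand, chr2:180187787-180187846 and chr2:180187769-180187828), of which the first 30 are shown. Its Cy5 signals ran from 12.15 to 14.79 and from 12.66 to 13.64, with overlapping groups. Its log2 ratios were 0.41, 0.45, 0.09, 0.16 and 0.20 against 1.60, 0.64, 0.80 and 0.58, close to those of its neighbour on each array (0.38, 0.40, -0.09, 0.10 and 0.09 against 1.75, 0.63, 0.91 and 0.88), and they differed by -0.65 (adjusted p = 0.0651), without overlap of the groups.
Rps21 shared stretch: aacttttgagcagaagaaatcgggaatttg

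**Figure D5:**
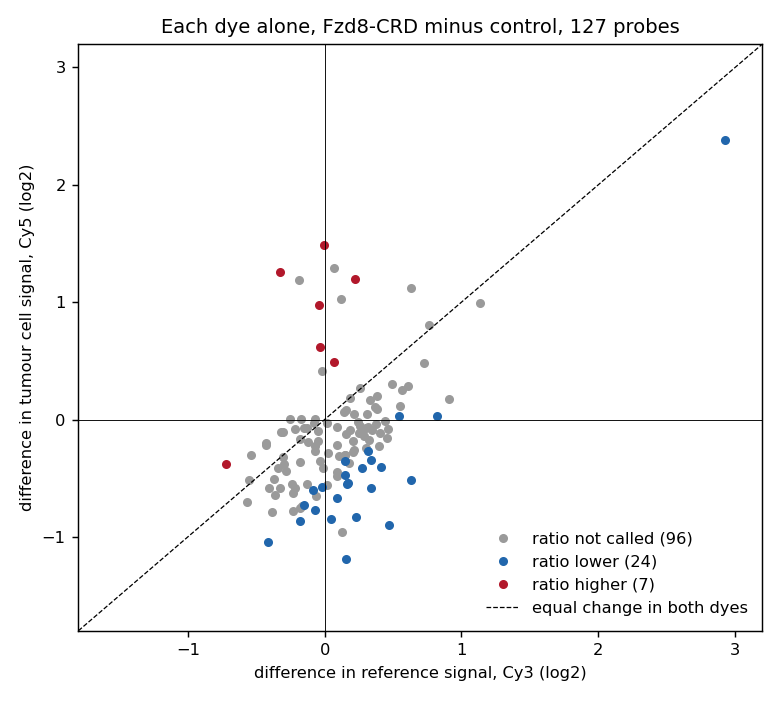
Difference between groups in the signal of each dye alone, Cy5 (tumour cell RNA) against Cy3 (reference RNA), on the log2 scale for 127 probes. The dashed line marks an equal difference in both dyes, each normalized on its own. Rps21 A_52_P678800 is the point at the upper right, and 6 of the 7 rising probes lie above 0 in Cy5, with Rps28 at the left below 0 in both dyes.

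The start of each gene was searched for the pyrimidine letters typical of a TOP tract. RefSeq promoter windows (GRCm38.p6) held 58 of the 78 genes. The motif CTTTCC, within 50 bases either side of the start and on the strand of the gene, occurred in 18 of 58 (31.0%), against 5.43% of all 27025 genes with a window, and on the other strand in 1 (1.72%), against 5.12%. It occurred in 4 of 15 genes with a falling probe (26.7%) and in 14 of 43 other members (32.6%). Stretches of at most 30 bases with the motif in capitals are shown for a gene that fell (window chr11:98026674-98026973), a gene that rose (chr16:33056232-33056531) and a gene that was not called (chr7:4792715-4793014), all on the plus strand. A match is a description of these letters.
Rpl19: ggcccacaagctCTTTCCtttcgctgct
Rpl35a: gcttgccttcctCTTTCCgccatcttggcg
Rpl28: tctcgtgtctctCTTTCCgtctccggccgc

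Genes that work with the ribosomal proteins were compared by counts and medians. Genes named from a list are those with the smallest limma p, each at its probe of smallest p. Other probes of these genes, where tested, are not given, so the named values are the list's extremes. Of 33 probes of 17 other TOP genes, such as elongation factors, 5 fell (15.2%) and 1 rose, with a median of -0.24. Over all probes tested, 7.84% fell and 6.79% rose. The elongation factor subunit Eef1g fell by 0.64 (adjusted p = 0.0122) and Gas5, a host of small nucleolar RNAs, by 0.57 (adjusted p = 0.0196), and Pabpc1, the poly(A) binding protein, rose by 1.65 (adjusted p = 0.0104). Of 10 probes of 5 ribosomal protein genes outside the name rule 2 fell, Rack1, a scaffold on the small subunit, by 0.66 and Rpl7l1 by 0.79 (adjusted p = 0.0214 and 0.0327).

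Of 69 probes of 40 ribosome assembly factors 5 fell (7.25%) and 1 rose, with a median of -0.22. Over all probes tested 7.84% fell and 6.79% rose, so the falling share of this list lay near the background. Emg1, an 18S RNA methyltransferase, fell by 0.83 (adjusted p = 0.00749), Nhp2, a subunit of the pseudouridylation complex, fell by 0.87 (adjusted p = 0.00764), and Nop56, of the methylation complex, rose by 0.96 (adjusted p = 0.0209). Of 24 probes of RNA polymerase I and its factors 3 fell and 2 rose, with a median of -0.10. The subunits Polr1d and Polr1c fell by 0.68 and 0.58 (adjusted p = 0.0224 and 0.0225), and Ubtf, a transcription factor of ribosomal DNA, rose by 0.50 (adjusted p = 0.0129). Of 28 probes of ribosomal protein kinases and TOP regulators 3 rose and 0 fell in limma's test (3 lower at an unadjusted p under 0.05), with a median of 0.04. Those that rose were the S6 kinase Rps6kb1 (0.63, adjusted p = 0.0193), Larp1 (0.49, adjusted p = 0.0263) and the mTOR partner Rptor (0.48, adjusted p = 0.0311).

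Mitochondrial ribosomal proteins, which build the separate ribosome of that organelle, also leaned lower. Of 119 probes of 78 genes 29 fell (24.4%, against 7.84% of all probes) and 2 rose (against 6.79%). The median was -0.38, and the difference between the families was not tested. Mrpl28 fell by 1.06 (adjusted p = 0.00567), Mrpl21 by 0.87 (adjusted p = 0.00628) and Mrpl37 by 0.74 (adjusted p = 0.00810). Array medians of this family ran from -0.32 to 0.0047 on the Fzd8-CRD arrays and from 0.12 to 0.27 on the controls, without overlap.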

How the data were processed

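Each of the 9 arrays was read from its scanner file. Spot intensity values (mean and local background of each dye) and a dye-normalized log10 ratio stand in these files as Agilent's Feature Extraction software, version 9.5.3.1, wrote them, per the file headers. The authors' deposited value table gives a linear ratio whose log2 tracked the scanner's ratio with a correlation of 1, and its column medians were 0.833 to 0.954. Of 45018 spots an array, 1639 were controls; 1229 outlier spots over all arrays were dropped, and 0 were saturated. Intensities were background corrected with normexp (offset 50, which understates differences of dim probes) and loess normalized within arrays, with control spots at weight 0, in limma 3.58.1 (R 4.3.3, with version 1.17.8 of data.table). Spots of a probe were averaged. A probe was kept if its Cy5 signal was well above background on 4 arrays or more, which left 26823 (65.1%), 100 of them without a ratio on some array. All were fitted with lmFit and eBayes and adjusted together by Benjamini-Hochberg. The number of arrays limits the precision. The fit was tested on simulated data.

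Groups follow the treatment label, and replicate numbers follow accession order. Of 130 member probes, 109 had an accession in the RefSeq gene table, which gives 2 (Rps3a) the symbol Rps3a1. Sequences and mm8 positions are those of the arrays' files; exons and introns were not assigned. Overlaps needed 30 bases or more with up to 8 mismatches, and probe order used RefSeq mRNA probes of the same accession with midpoints 60 to 200000 bases apart. Members, gene lists and naming rule were chosen with earlier results of these data known, and accession kind and probe order were examined after values had been seen. The rule named the 12 largest falls and up to 8 rises called without overlap, probes of a called gene that disagreed in sign or by over 0.5, the stalk, Rpsa, Rps6, the paralogs, the smallest difference in each subunit and up to 3 genes a list. Those of a list were the genes with the smallest p, each given by its probe of smallest p only. Probes beyond it were chosen after their values were seen. Settings varied were the offset and background step, ratio source and scaling, Cy5 alone, the dim-probe filter, array weights, slide as a random block, the brightest probe of a gene, and each array left out.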

Additional observations from a re-analysis of the deposited data

Results flagged for a closer look

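Among 78 groups of 4 or 5 arrays examined (each named probe in each group, and the array medians), 4 (5.13%) held an array far from the others, where chance gives about 1 in 20. Fzd8-CRD replicate 2 lay at -0.91 for Rpl19 A_52_P547021, where the other treated arrays had -0.68 to -0.60, and at -1.19 for Rps2 A_52_P277592, where they had -0.83 to -0.70. Control replicate 1 lay at 1.13 for Rps13 A_51_P327469, where the other controls had 0.48 to 0.54, and at 1.31 for Rplp1, where they had 0.68 to 0.77.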

How the results depend on the processing

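The counts of members lower and higher were 24 and 7, the median difference -0.27 and the count of all probes called 3924. The falling count became 7 under the ratio written by the scanner, 7 under the deposited ratios, and 1 with median centring, where 1 member rose, the median was -0.43 and 990 probes of all genes were called. Cy5 alone gave 11 rises, where 9.17% of all probes rose. Array weights gave 37 falls (29.1%, against 19.7% of all probes), 17 rises and 9448 probes called. Counts of rises in this section, Cy5 alone apart, are given without the share over all probes. The slide as a random block gave 45 falls (35.4%, against 16.4% of all probes), 12 rises and 8051 probes called. Its consensus correlation was -0.16, and it could not separate slide from group. With the brightest probe of each gene 14 of 78 members fell and 2 rose, and with the closest arrays averaged 6 fell, 1 rose and 504 probes of all genes were called. Leaving out 1 array at a time gave 14 to 25 falls, 2 to 11 rises, medians of -0.32 to -0.17 and 1894 to 4627 probes called. The members' falling share lay above that of all probes in 19 of 22 alternatives and at or below it in 3, the scanner's log ratio, the deposited ratios and median centring. Of 797 values of named probes under an alternative, 644 kept sign and side of the threshold, 93 lost a call, 7 gained one and 53 changed sign, 3 of these with a call on either side. In Cy5 alone the sign turned for Rps29 (-0.51), Rps21 A_52_P678800 (2.39), Rpl29 A_52_P217069 (0.034), Rpl13 A_52_P668076 (-0.10), Rpl13 A_51_P203420 (-0.32), Rplp2 (0.20), Rplp1 (0.28), Rpl27a A_51_P132459 (-0.10) and Rpsa A_52_P372165 (0.16). With scaling between arrays it turned for the same Rpsa (0.16), Rpl13 (-0.0095 and -0.16) and Rplp2 (0.22) probes, Rps3 A_51_P318642 (0.095), Rps19 A_52_P404955 (0.10) and Rpl23a A_52_P685714 (0.023), and with median centring for Rps29 (-0.23) and both Rpl13 probes (-0.0025 and -0.16). The scanner's and the deposited ratios each turned Rpl3l (1.20), Rpl7 A_52_P346326 (0.025), Rplp2 (0.036), Rpl23a (0.058) and Rpl15 (0.13). Array weights turned Rps29 (-0.026), the same Rpl7 (0.12) and Rpl23a (0.093) probes and Rpl15 (0.27). Rpl15 also turned with a normexp offset of 16 (0.029), no background correction (0.046, with Rpl23a at 0.010) and the slide as a random block (0.011), and Rpl13 A_51_P203420 with the closest arrays averaged (-0.073). Leaving out 1 array at a time spanned 0 for Rps29 (-0.027 to 0.13), Rpl7 (-0.18 to 0.058), Rplp2 (-0.16 to 0.030), Rpl13 A_51_P203420 (-0.085 to 0.17), Rps19 A_52_P404955 (-0.31 to 0.047), Rpl23a (-0.093 to 0.052) and Rpl15 (-0.11 to 0.12). The cause of the changes was not tested, except that the brightest-probe setting tests fewer probes and leaving out arrays fewer samples. No paired analysis was possible because replicate numbers follow accession order and pair no arrays. Cy5 signals near background limit what can be seen of the 3 probes not tested.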

Other observations

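Rps27a A_51_P128945, a probe of a gene that encodes ubiquitin fused to a ribosomal protein, rose by 0.99 in Cy5 (adjusted p = 0.00328) and by 1.13 in Cy3, and its ratio differed by -0.26 (adjusted p = 0.490). For Rps4x the expressed sequence tag probe A_52_P780667 rose by 1.12 in Cy5 and by 0.63 in Cy3. Its ratio differed by 0.61 (limma adjusted p = 0.0781), where that of the gene's RefSeq mRNA probe differed by -0.10. The tag probe had log2 Cy5 signals of only 6.4 to 8.2 and no position on mm8. The part of low signal was not tested.

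Member probes were more often spread over a genomic span longer than their 60 bases than probes of the array at large, 42 of 127 (33.1%) against 12.3%. Those 42 had a median difference of -0.23 and the 81 with a span of 60 bases one of -0.28. The 19 member probes with stop codon letters in all 3 frames had a median of -0.23, and the 20 with AATAAA or ATTAAA, searched on the strand of the probe, also had one of -0.23. The GC content of members ranged from 28.3% to 75.0%, with a median of 45.0% against 40.0% for all probes.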
